A study of Mus musculus with 9 samples.

Results

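The proteasome genes of mouse mammary tumour organoids were followed after Cre-mediated targeting of Cdh1, the gene for E-cadherin. They were taken as the protein-coding genes whose symbol begins with Psma to Psmg and a number, leaving out the immunoproteasome genes Psmb8 and Psmb9, with a level of at least 1 CPM (counts scaled to the library total) in at least 4 of the 9 libraries. This gave 46 of the 51912 genes in the table. Of these, 15 encode subunits of the 20S core and 20 carry symbols of the 19S cap. A further 6 encode activators or an inhibitor and 4 encode assembly chaperones. The remaining one, Psmc3ip, shares only the name, since its protein acts in meiotic recombination, and it was set apart from the other 45. Psma8 and Psmb11, the germ-cell and thymic core subunits, matched the pattern but did not pass the CPM minimum, and 4 pseudogenes were not protein-coding.

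Organoids, which are epithelial fragments of tumours, came from FVB/NJ mice that carried MMTV::PyMT, a viral oncogene under a promoter active in mammary epithelium, and the (R26)pCA::mT/mG Cre reporter. The 4 WT samples were Cdh1+/+ and the 5 E-cad-KO samples were Cdh1fl/fl. All 9 were exposed overnight to adeno-Cre, so the controls also received virus and Cre, and all were then kept for 48 h in collagen I with FGF2. The labels state neither ages nor how many animals went into a sample.

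The proteasome degrades proteins tagged with ubiquitin. Its 20S core is a barrel of alpha rings, which gate the entry, and beta rings, which hold the catalytic sites. The 19S cap binds ubiquitin chains, removes them, and unfolds the substrate with a ring of ATPases. Subunit genes are controlled in concert by the transcription factor NRF1 (Nfe2l1), which cells activate when proteasome capacity falls short.

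Library totals ran from 44890302 to 64763645 counts, so that 1 CPM was 44.9 counts in the smallest library. Cdh1 stood at 150.3 to 246 CPM in WT and 79.0 to 118 CPM in E-cad-KO, with no overlap (log2 fold change -1.05, SE 0.16, edgeR adjusted p = 0.0275), so its transcripts were reduced, not absent. Epithelial markers summed to 5508 to 15541 CPM in WT and 7577 to 12043 CPM in E-cad-KO, and each of the 8 reached 1 CPM in at least 1 library. WT 4 stood apart, with the least epithelial marker RNA and the most macrophage (490.5 CPM), fibroblast, endothelial and lymphocyte marker RNA. The lowest WT library held 46.5 CPM of macrophage markers, and E-cad-KO libraries held 65.2 to 215 CPM. Fibroblast markers summed to 62.8 to 351 CPM in WT and 126 to 215 CPM in E-cad-KO. Endothelial markers summed to at most 12.4 CPM, with 4 of 7 below 1 CPM in every library, and lymphocyte markers to at most 3.19 CPM, with 8 of 9 below 1 CPM. The part of these cells in the results was not tested.

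Proteasome mRNA levels differed little between WT and E-cad-KO organoids. None of the 46 genes was called at an edgeR adjusted p under 0.05, where 1.41% of all 17289 genes tested were called. Of all genes tested 0.908% were called higher and 0.503% lower (157 and 87 genes, or 123 and 151 with upper-quartile scaling). At an unadjusted p under 0.05 there were 8 of the 46, of which 2 were higher and 6 lower, against 16.7% of all genes tested. DESeq2 called 4 of the 46, and 1206 of all 17289 genes tested. limma-voom called 0 of the 46, and 511 of all genes tested. The 45 proteasome genes together made up 7606, 7704, 7346 and 7532 CPM in WT 1 to 4 and 7276, 7306, 7517, 7388 and 7245 CPM in E-cad-KO 1 to 5. These sums overlapped between the groups. In bulk samples, fewer cells of a type and less RNA per cell cannot be told apart.

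The measurement was tight enough to bound the differences. The 95% interval of the log2 fold change, taken gene by gene and not adjusted for the number of genes, lay within a 1.5-fold change in either direction for 46 of 46 genes, against 60.0% of all genes tested and 89.0% of those with a mean of at least 10 CPM. The coefficient of variation between WT libraries had a median of 5.64% over the 45 proteasome genes and 8.99% over all genes of at least 10 CPM. It ran from 1.57% for Psma5 to 13.3% for Psmb10. Exons of Psma4, Psma5, Psmb7, Psmc3, Psmc3ip, Psmd1, Psmd3, Psmd9, Psmd13 and Psme1 overlap a gene on the other strand, and those of Psmb5, Psmd1, Psme2b and Psmg3 one on the same strand. Reads in the shared exons of these genes could be counted for either gene or for none.

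**Figure D1:**
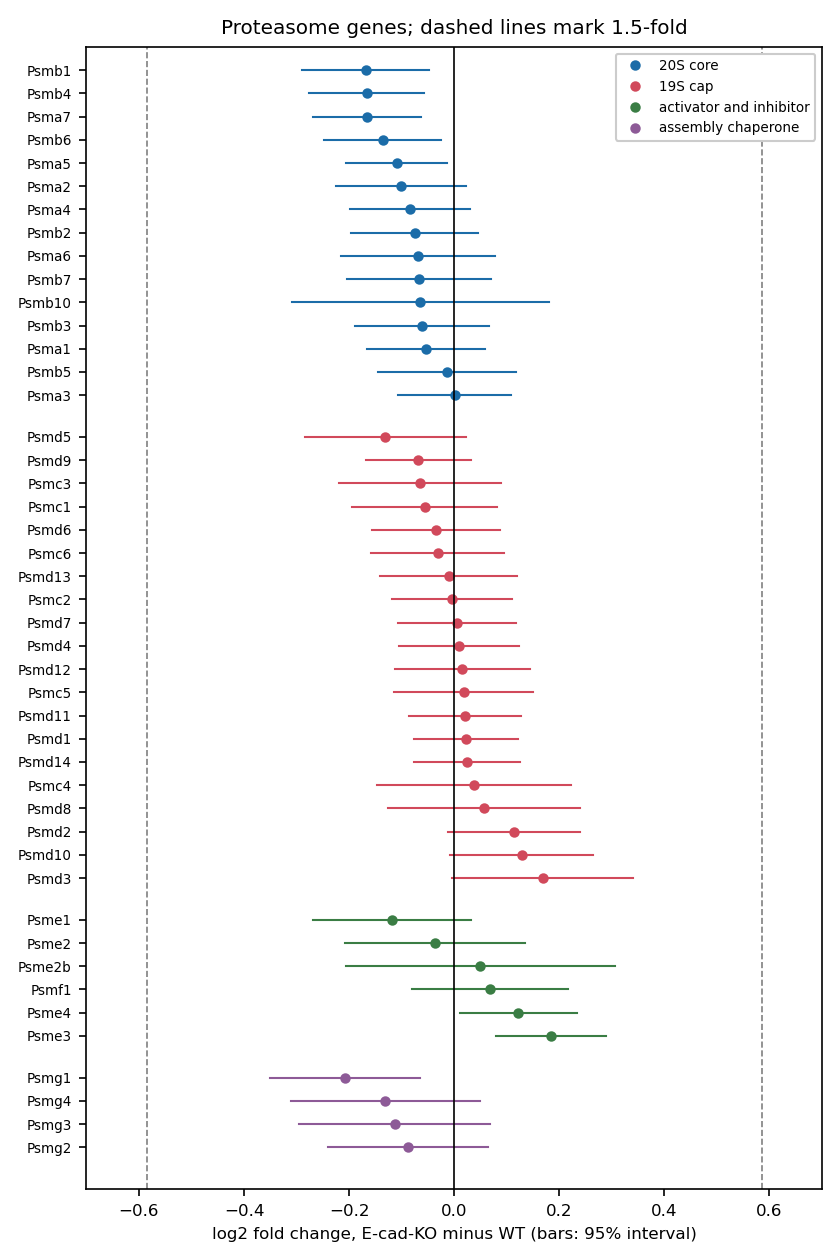
Log2 fold change of E-cad-KO over WT (x axis) for each of the 45 proteasome genes (y axis), with 95% intervals as bars, grouped by class, and dashed lines at a 1.5-fold change. All bars lie between the dashed lines, and 14 of 15 core points sit left of 0 while the 20 cap points spread over both sides.

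Genes of the 20S core mostly had small negative values in E-cad-KO, none of which was called by edgeR. Of 15, 14 had a negative log2 fold change (median -0.075), against 52.0% of all genes tested (median -0.0095). At an unadjusted p under 0.05 there were 5 of the 15, all lower, where 7.99% of all genes tested were lower by that measure. For the same 5 genes, Psma5, Psma7, Psmb1, Psmb4 and Psmb6, every E-cad-KO library was below every WT library, as it was for 3.82% of all genes tested. Over all 45 proteasome genes 7 had groups that did not overlap in either direction, against 8.1% of all genes tested. Of the 15 core genes DESeq2 called 3 lower, Psma7, Psmb1 and Psmb4, against 492 of all 17289 genes tested.

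The core difference moved when transcript length and GC content were taken into account together. Core transcripts were short, with a median of 1165 bases against 2731 bases over all genes tested, and across all tested genes the log2 fold change was higher for longer transcripts (Spearman rho 0.18 over 17251 genes, which are not independent, beside 0.088 for GC content). When length and GC content were entered as offsets, a setting chosen after seeing the data, 7 of the 15 core genes were negative and the core median was 0.014. The offsets were fitted to each library's own values without regard to group. They therefore also remove any group difference that follows length or GC content, whether technical or biological, and these cannot be told apart. With those offsets 0 core genes were called, and none had an unadjusted p under 0.05.

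Among the alpha subunits, Psma7 showed the smallest p. It held 321, 303, 306 and 316 CPM in WT 1 to 4 and 267, 284, 280.4, 282 and 276 CPM in E-cad-KO 1 to 5. The lowest WT library was above the highest E-cad-KO library, although the log2 fold change of -0.17 (SE 0.05) was not called (edgeR adjusted p = 0.105). Psma5 was the most even member across WT libraries, at 199, 202, 195 and 200.5 CPM in WT and 181, 189.7, 188, 184 and 179 CPM in E-cad-KO. Its log2 fold change of -0.11 (SE 0.04) was not called (edgeR adjusted p = 0.233). Psma2 (-0.10, SE 0.06) and Psma4 (-0.084, SE 0.05) followed, with overlapping groups. Psma3 was the only core gene with a positive value, at 272 ± 11.9 CPM over 4 WT libraries (mean ± SD) against 272 ± 4.29 CPM over 5 E-cad-KO libraries. The sign of Psma3 differed in 5 of 20 alternative settings.

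The beta rings hold the active sites. Psmb6, whose protein carries the caspase-like site, held 294, 276, 283 and 280.0 CPM in WT and 257, 255, 276, 255 and 246 CPM in E-cad-KO. The highest E-cad-KO library lay just under the lowest WT library (log2 fold change -0.14, SE 0.05, edgeR adjusted p = 0.203). Psmb7, for the trypsin-like site, held 236 ± 18.3 CPM over 4 WT libraries (mean ± SD) against 226 ± 9.03 CPM over 5 E-cad-KO libraries, and the groups overlapped. Psmb5, for the chymotrypsin-like site that proteasome inhibitor drugs bind, held 78.3, 88.0, 78.5 and 86.2 CPM in WT and 83.7, 83.5, 87.0, 79.7 and 76.1 CPM in E-cad-KO. The Psmb5 groups lay on top of each other, with a 95% interval from -9.51% to 8.55% around a change of -0.89%.

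Reads of Psmb5 could be split with a copy. The processed pseudogene Gm3375 matches the Psmb5 transcript over 796 bases at 98.9% identity and was listed at 47.6 ± 2.30 CPM over 4 WT libraries (mean ± SD) against 44.95 ± 1.59 CPM over 5 E-cad-KO libraries. The level of Psmb5 is therefore uncertain. With the counts of both added, the sum was 130.3 ± 7.31 CPM over 4 WT libraries (mean ± SD) against 127 ± 4.87 CPM over 5 E-cad-KO libraries, and the log2 fold change of -0.038 (SE 0.05) was not called (edgeR adjusted p = 0.787).

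The structural subunits Psmb1 and Psmb4, which carry no active site, had the lowest core values. Psmb4 held 229, 229.9, 227 and 239 CPM in WT and 217, 210.1, 209.7, 198 and 195 CPM in E-cad-KO. Psmb1 held 325, 313, 302 and 302 CPM in WT and 272, 292, 291, 264 and 263 CPM in E-cad-KO. In neither gene did the groups overlap, with log2 fold changes of -0.17 (SE 0.05, edgeR adjusted p = 0.123) for Psmb4 and -0.17 (SE 0.05, edgeR adjusted p = 0.153) for Psmb1. Psmb2 (-0.075) and Psmb3 (-0.061) were closer to 0. With length and GC offsets Psmb4 stood at -0.099, Psmb1 at -0.10 and Psma7 at -0.075.

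**Figure D2:**
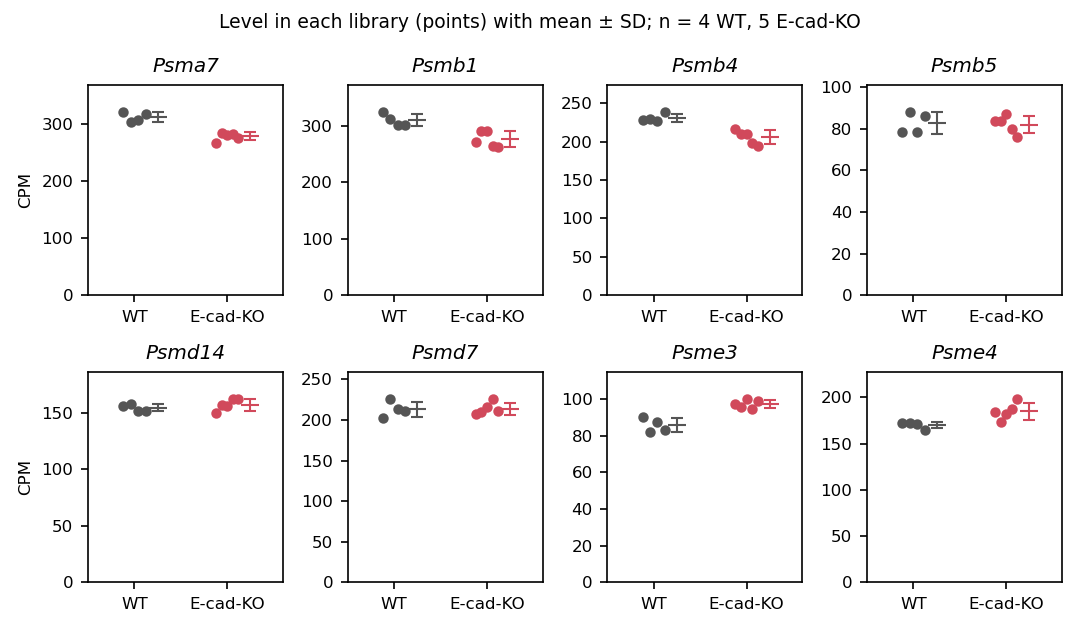
Level in CPM (y axis, from 0) of 8 proteasome genes in each WT (grey) and E-cad-KO (red) library, with mean ± SD beside the points. Psma7, Psmb1 and Psmb4 sit lower in every E-cad-KO library and Psme3 and Psme4 higher, while Psmb5, Psmd14 and Psmd7 overlap.

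Psmb10 encodes the inducible counterpart of the Psmb7 subunit in the immunoproteasome, which interferon gamma builds. It held 27.3, 36.2, 36.8 and 36.0 CPM in WT and 35.1, 26.4, 32.4, 35.1 and 34.0 CPM in E-cad-KO. The groups overlapped fully (log2 fold change -0.065, SE 0.11, edgeR adjusted p = 0.834). Its level per kb of transcript, 26.0 ± 3.46 CPM per kb in WT (SD, n = 4), was well under the 204 ± 15.7 CPM per kb of Psmb7 (SD, n = 4). The companion genes Psmb8 and Psmb9, outside the set described here, stood at log2 fold changes of -0.16 (edgeR adjusted p = 0.545) and -0.28 (edgeR adjusted p = 0.237). Exons of Psmb9 overlap Tap1 on the other strand.

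Of all members, 2 lie near Cdh1 on chromosome 8 of GRCm38. Psmb10 spans chr8:105935735-105938444, at 664.9 kb from Cdh1, and Psmd7 spans chr8:107580381-107588464, at 910.1 kb on the other side. Psmd7, a lid subunit that pairs with the deubiquitinase, held 203, 226, 214 and 211 CPM in WT and 207, 210.0, 216, 226 and 212 CPM in E-cad-KO. Its log2 fold change was 0.0062 (SE 0.05, 95% interval -0.11 to 0.12). Neither neighbour of the floxed gene was called. Whether DNA that flanks the floxed alleles bears on either level cannot be told apart from the loss of E-cadherin.

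Genes of the 19S cap showed no common direction in the reported fit. Of 20, 12 were positive and 8 negative (median 0.012), 0 were called by edgeR, and 0 had an unadjusted p under 0.05 in either direction. DESeq2 and limma-voom also called 0. With upper-quartile scaling 15 of the 20 were negative (median -0.020), while the median of all genes tested moved from -0.0095 to -0.042, so the sign of the cap median followed a shift shared by all genes. With length and GC offsets, added after seeing the data, 4 of the 20 were negative (median 0.048). The median of all genes tested was then -0.0016. In that setting 0 cap genes were called and 2 had an unadjusted p under 0.05, against 2388 of all 17289 genes tested.

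The ATPases Psmc1 to Psmc6, which unfold substrates, ranged from -0.065 for Psmc3 to 0.038 for Psmc4. Psmc3 held 276, 329, 298 and 341 CPM in WT and 299, 279.5, 293, 305 and 310.3 CPM in E-cad-KO, so that the E-cad-KO libraries lay inside the WT range (edgeR adjusted p = 0.703). Psmc1 (-0.056) and Psmc6 (-0.032) were also within their spread.

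Of the non-ATPase subunits, Psmd14, the deubiquitinase that cuts chains off the substrate, held 156, 158, 152 and 152 CPM in WT and 149, 157, 156, 162 and 162 CPM in E-cad-KO. The libraries overlapped across the range, and the change was 1.70% with an interval from -5.13% to 9.03%. Psmd1, a large scaffold of the base, changed by 1.601% (interval -5.11% to 8.79%). Psmd4, a ubiquitin receptor, changed by 0.68% (interval -6.96% to 8.96%). Psmd2, the other large scaffold, held 225, 224, 226 and 236 CPM in WT and 261, 252, 259, 233 and 228 CPM in E-cad-KO, with 3 E-cad-KO libraries above all WT libraries and 2 among them (0.11, SE 0.06, edgeR adjusted p = 0.350). Psmd3, a lid subunit, had the largest positive value of the cap (0.17, SE 0.08, edgeR adjusted p = 0.308). Its exons overlap Gm12356 on the other strand.

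Psmd5, Psmd9 and Psmd10 have cap symbols, but their proteins are chaperones that help assemble the ATPase ring and are not in the finished particle. Per kb of transcript their WT levels were 27.6 ± 2.59, 17.4 ± 0.419 and 47.5 ± 3.98 CPM per kb (SD, n = 4). The other cap genes ran from 40.9 ± 0.7998 CPM per kb for Psmd11 to 190.1 ± 18.1 CPM per kb for Psmc3 (SD, n = 4), so Psmd5 and Psmd9 were below all of them and Psmd10 was above Psmd11 and Psmd3. In the comparison Psmd5 stood at -0.13 (SE 0.07, edgeR adjusted p = 0.379), Psmd9 at -0.068 (SE 0.05, edgeR adjusted p = 0.493) and Psmd10 at 0.13 (SE 0.06, edgeR adjusted p = 0.329).

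Activators replace the cap at the end of the core. Psme3, the nuclear PA28 gamma that admits substrates without ubiquitin, held 90.1, 81.9, 87.2 and 82.9 CPM in WT and 96.9, 95.6, 99.8, 94.6 and 98.6 CPM in E-cad-KO. Every E-cad-KO library was above every WT library, as for 4.28% of all genes tested. The Psme3 log2 fold change of 0.18 (SE 0.05) had the smallest adjusted p of the 46 genes and was not called by edgeR (adjusted p = 0.0840). It was called by DESeq2 (adjusted p = 0.0042), and over 20 alternatives it stayed between 0.15 and 0.21. With length and GC offsets it was 0.19.

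Psme4, the large activator PA200, held 172, 172, 171 and 165 CPM in WT and 184, 173, 183, 188 and 198 CPM in E-cad-KO. The groups did not overlap, although E-cad-KO 2 was close to the WT libraries (log2 fold change 0.12, SE 0.05, edgeR adjusted p = 0.253). Psme1 and Psme2 encode PA28 alpha and beta, which interferon gamma induces and which serve antigen processing. Psme1 went from 143 ± 8.96 to 131 ± 9.75 CPM and Psme2 from 225 ± 24.6 to 219 ± 12.1 CPM (SD, n = 4 and n = 5), with overlapping groups for both and edgeR adjusted p = 0.420 and 0.866. Psme1 was lowest among WT libraries in WT 4, the library richest in macrophage and other non-epithelial markers, at 129 CPM. Exons of Psme1 overlap Emc9 on the other strand.

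Psme2b, a copy of Psme2 with 99.4% identity over 794 bases, was listed at 4.67 ± 0.348 CPM over 4 WT libraries (mean ± SD) against 4.83 ± 0.380 CPM over 5 E-cad-KO libraries, and its reads could belong to Psme2. Psmf1, the inhibitor PI31, stood at 22.3 ± 1.48 CPM over 4 WT libraries (mean ± SD) against 23.4 ± 1.17 CPM over 5 E-cad-KO libraries. Of the 6 activator and inhibitor genes, 4 were positive and 0 were called by edgeR, with 2 higher at an unadjusted p under 0.05, where 8.74% of all genes tested were higher.

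The chaperones Psmg1 to Psmg4 guide assembly of the alpha ring. All 4 were negative (median -0.12), and 0 were called by edgeR, DESeq2 or limma-voom. Psmg1 held 36.9, 39.8, 37.3 and 33.3 CPM in WT and 30.6, 32.4, 34.4, 31.3 and 30.9 CPM in E-cad-KO, overlapping only in WT 4 and E-cad-KO 3. Its log2 fold change of -0.21 (SE 0.06, edgeR adjusted p = 0.139) was the lowest of the 46. Psmg4 (-0.13), Psmg3 (-0.11) and Psmg2 (-0.088) overlapped more. Pomp, the chaperone that completes the beta rings, lay in the same direction, at 219 ± 10.02 CPM over 4 WT libraries (mean ± SD) against 197 ± 10.3 CPM over 5 E-cad-KO libraries, with a log2 fold change of -0.16 (SE 0.06, edgeR adjusted p = 0.188). With length and GC offsets the Psmg median was -0.040. Psmc3ip stood at -0.12 (SE 0.11, edgeR adjusted p = 0.628).

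A score for each class was taken as the mean of its genes' log2 CPM from which the gene's own 9-library mean had been subtracted. The core score was 0.049 ± 0.029 (mean ± SD, 4 WT libraries) against -0.039 ± 0.023 (5 E-cad-KO libraries), without overlap. With Psmb10 left out, a setting chosen after seeing the data, the groups met, with WT 3 at -0.0012 and E-cad-KO 3 at 0.0005. The cap score was -0.0063 ± 0.033 and 0.0050 ± 0.024, with overlap. The assembly chaperone score was 0.0740 ± 0.0235 and -0.0592 ± 0.0200, also without overlap, so separate scores were not particular to the core. Cytoplasmic ribosomal protein genes, another large set of short and abundant transcripts, had a negative log2 fold change in 82 of 82 (median -0.26), of which 1 was called, and their score and the core score were correlated across the 9 libraries (Pearson r = 0.77, a description of libraries that share groups and scaling). The core and cap scores were less alike (r = 0.14). Ribosomal protein scores overlapped between the groups, with WT 4 at -0.022 and E-cad-KO 3 at -0.014. For 24 of the 82 ribosomal protein genes every E-cad-KO library was below every WT library, against 3.82% of all genes tested. With length and GC offsets, the ribosomal median was -0.17 and all 82 stayed negative. The difference between these classes was not tested.

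**Figure D3:**
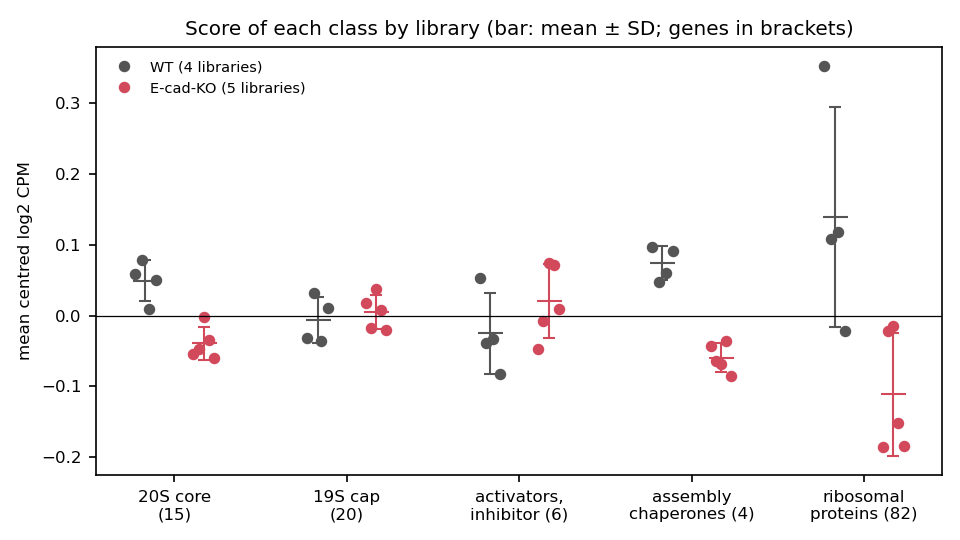
Mean centred log2 CPM (y axis) of each gene class (x axis, number of genes in brackets) in each WT (grey) and E-cad-KO (red) library, with mean ± SD as bars. Core scores average 0.049 in WT and -0.039 in E-cad-KO, and assembly chaperone scores 0.074 and -0.059, both without overlap. Cap scores overlap around 0, and WT 1 has the highest ribosomal protein score (0.35).

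**Figure D4:**
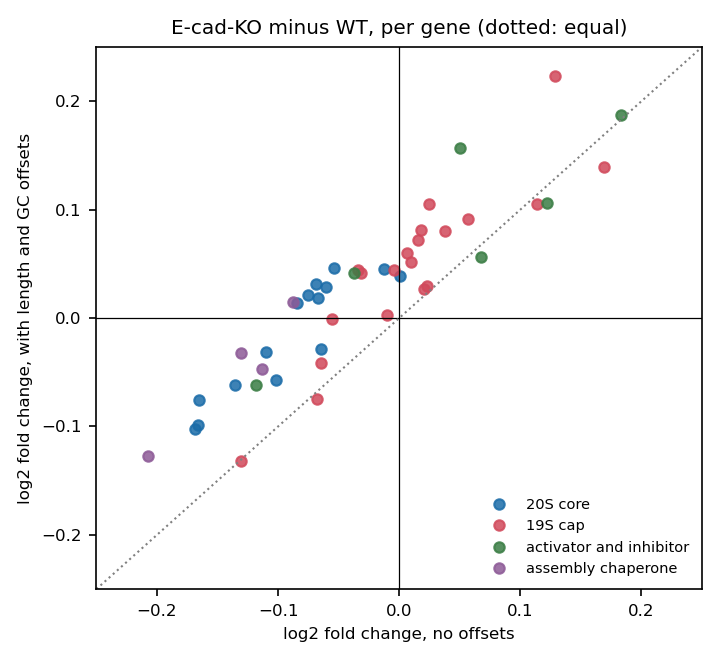
Log2 fold change of each of the 45 proteasome genes without (x axis) and with (y axis) offsets for transcript length and GC content, coloured by class, with a dotted line where both are equal. Most points lie above the dotted line, so that 8 of the 15 core genes move to 0.01 or above.

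Genes around the proteasome were described from 5 fixed lists with 45 tested genes, of which Tapbp was the one called. Among 9 transcriptional regulators of subunit genes, 7 were positive and 0 were called by edgeR, with 3 higher at an unadjusted p under 0.05, against 8.74% of all genes tested. Nfe2l1, which encodes NRF1, held 281, 289, 250.3 and 223 CPM in WT and 314, 329.9, 356, 306 and 314 CPM in E-cad-KO. All E-cad-KO libraries were above all WT libraries, and the log2 fold change of 0.31 (SE 0.08) was not called by edgeR (adjusted p = 0.0901) but was by DESeq2 (adjusted p = 0.0101). Its small Maf partners Maff (0.56, SE 0.14) and Mafk (0.33, SE 0.08) were likewise separate between groups and not called (edgeR adjusted p = 0.0809 and 0.0633), while DESeq2 and limma-voom called both. Exons of Mafk overlap Tmem184a on the other strand. Mafg, another small Maf gene of the list, was added after its values were seen. It overlapped between groups (0.042, SE 0.10, edgeR adjusted p = 0.889). Its WT mean was 128 CPM, against 11.3 CPM for Maff and 22.6 CPM for Mafk. Nfe2l2, for the related oxidative stress factor NRF2, overlapped between groups (-0.18, SE 0.14). For Ngly1, whose enzyme processes NRF1 and which was singled out after its values were seen, every E-cad-KO library was below every WT library (-0.12, SE 0.06, edgeR adjusted p = 0.337).

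NRF1 and NRF2 with small Maf proteins bind antioxidant response elements. RefSeq promoter windows of 300 bases on GRCm38.p6, from 250 before to 50 after the start, were found for 38 of the 45 genes. The letters TGACNNNGC on either strand were in 6 of the 38, Psmb5, Psmb6, Psmc6, Psmd9, Psmd12 and Psme4. By window this was 14.6% of 41, against 12.4% of all 32851 windows. The copies in the catalytic genes Psmb5 and Psmb6 and in the ATPase gene Psmc6 are shown as examples of subunits of the finished particle, 5′ to 3′ on the gene's strand, with the matching letters in capitals. In Psmc6 the match is on the opposite strand.
Psmb5 (chr14:54618018-54618058, minus strand, 47 to 39 bases before the start): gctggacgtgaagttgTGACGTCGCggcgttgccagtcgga
Psmb6 (chr11:70525332-70525356, plus strand, 9 to 1 bases before the start): ggcggactaaagagagTGACGGAGC
Psmc6 (chr14:45329581-45329621, plus strand, 227 to 219 bases before the start): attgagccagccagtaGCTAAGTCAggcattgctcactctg
The 6 genes with these letters ranged in log2 fold change from -0.14 for Psmb6 to 0.12 for Psme4, with Psmb5 at -0.013, Psmc6 at -0.032, Psmd9 at -0.068 and Psmd12 at 0.015. None of the 6 was called by edgeR. The interferon-stimulated element, searched as GAAA, any 2 bases and GAAA on either strand, was in 12.2% of the 41 windows and 3.44% of all windows, in Psmb3, Psmd4, Psmd9, Psme1 and Psmg4, and none of these 5 genes was called. A match of letters does not show that a factor binds there.

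Of 12 proteasome-associated genes, 8 were positive and 0 were called by edgeR, with 1 higher and 1 lower (Pomp) at an unadjusted p under 0.05. Akirin2, whose protein escorts proteasomes into the nucleus, held 26.1, 25.6, 24.5 and 22.3 CPM in WT and 27.8, 30.6, 29.4, 33.4 and 31.9 CPM in E-cad-KO. The groups did not overlap (0.31, SE 0.07, edgeR adjusted p = 0.0634, and adjusted p = 0.0032 by DESeq2). Akirin2 was called in 2 of 20 alternatives, DESeq2 and the length and GC offsets. Among 9 shuttle and segregase genes, which bring substrates to the particle, 8 were positive and 0 were called by edgeR. Of all genes tested 52.0% were negative. Transcripts of this list had a median of 3344 bases and those of the transcriptional regulators 3614 bases, against 2731 bases over all genes tested. Whether length bears on the signs in these lists was not tested. The ubiquilin genes Ubqln2 (0.45, SE 0.10, edgeR adjusted p = 0.0589) and Ubqln1 (0.26, SE 0.08, edgeR adjusted p = 0.114) had E-cad-KO libraries all above the WT libraries, as did 4.28% of all genes tested. DESeq2 called both and limma-voom called Ubqln2.

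Of 6 ubiquitin and activating enzyme genes, 0 were called by edgeR. The fusion gene Rps27a, which yields ubiquitin and a ribosomal protein, stood at -0.33 (SE 0.10, edgeR adjusted p = 0.145). It was called by DESeq2 (adjusted p = 0.0383). Exons of Rps27a overlap Clhc1 on the other strand.

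In the list of antigen processing genes, Tapbp, the tapasin gene that loads peptides onto MHC class I, rose from 73.6, 80.1, 81.3 and 74.3 CPM in WT to 106, 104, 120.1, 104 and 95.6 CPM in E-cad-KO (0.45, SE 0.07, edgeR adjusted p = 0.0232), and the other 9 genes were not called. By edgeR the adjusted p was 0.0777 when WT 3 was left out, 0.0591 when E-cad-KO 1 was, 0.0566 when E-cad-KO 4 was and 0.0815 when WT 1 and 4 both were, so the call did not hold in those fits. With the replicate number as a block it was 0.106, and the call was lost there too. The call held in 15 of 20 alternatives. Over all 20 the adjusted p ran from 1.24e-06 by DESeq2 to 0.106 by edgeR with the replicate block. Tapbp exons overlap Zbtb22 on the same strand and Gm19412 on the other. Exons of Tap1 overlap Psmb9, and those of Tap2 overlap Gm15821 and Gm20496, on the other strand. The transporter genes Tap1 (0.023) and Tap2 (0.067), which carry proteasome-made peptides into the endoplasmic reticulum, overlapped between groups.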

How the data were processed

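Counts per gene from 9 organoid samples were used as the authors deposited them, raw and not normalised. The submitters' processing notes name Bowtie2, TopHat2 and HTSeq with GRCm38. Neither versions, annotation release nor strand setting is given there, so members that share exons with another gene are listed. Of 51912 genes, 51633 had a symbol. Positions, biotypes and transcripts came from GENCODE M21 (GRCm38). Members and lists were chosen with earlier results of these data known.

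All genes passing filterByExpr (17289) were fitted with the quasi-likelihood test of edgeR 4.0.16 (R 4.3.3, TMM, robust dispersions, group as the only term, Benjamini-Hochberg adjustment, two-sided), with calls made below an adjusted p of 0.05. The design text calls the samples biological replicates, but the animals are not named, so the spread behind each p-value may be partly technical. CPM use TMM-scaled totals. SE is the log2 fold change divided by the square root of F, and 95% intervals use the fit's degrees of freedom. Levels per kb use the longest APPRIS principal transcript, and other isoforms may be expressed. Named were, with the 2 smallest p of each pathway list, the catalytic, scaffold, activator and chaperone genes, those near Cdh1, and the smallest p in each family. Copies share at least 95% identity over 200 bases, and 9 members had their counts summed with such copies as an alternative. Routines were tested on simulated counts. Alternatives were other scalings and filters, DESeq2 1.42.0, limma-voom (limma 3.58.1), a replicate block, left-out libraries and, added after seeing the data, length and GC offsets and summed copies. No pair of libraries of the same group agreed within sampling noise (smallest chi-square per degree of freedom 14.4). The values of 1 gene of the pathway lists are not reported here.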

Additional observations from a re-analysis of the deposited data

Results flagged for a closer look

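Each group of each of the 36 named members, but not of the pathway genes, was examined for a library far from the others. The measure was the gap to its nearest neighbour over the group's range. Of 80 groups, including those of the class scores, 6 were marked, where chance marks about 1 in 20. Psmb10 was low in WT 1 (27.3 CPM, the next library at 36.0 CPM). Psmd2 was high in WT 4 (236.3 CPM against 225.9 CPM), and Psme1 (129.2 CPM against 145.8 CPM) and Psme4 (164.7 CPM against 171.3 CPM) were low in WT 4. In E-cad-KO 5, Psmd4 was low (142.4 CPM against 158.9 CPM) and Psmd5 was high (121.1 CPM against 109.5 CPM).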

How the results depend on the processing

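In 20 alternatives, the number of called members stayed at 0 except with DESeq2, which called 4 (3 of the core, 1 activator). With upper-quartile scaling the median log2 fold changes were -0.107 for the core, -0.0198 for the cap and -0.155 for assembly chaperones. With length and GC offsets they were 0.0135, 0.0478 and -0.0396, and 134 genes were called. The cause was not tested. The chaperone median was -0.100 with limma-voom and -0.0755 without both WT 1 and WT 4. Leaving out 1 library at a time, the core median ran from -0.102 to -0.0663, the chaperone median from -0.152 to -0.0994 and the number of genes called from 9 to 334. All genes called were 244 in the reported fit, 1206 with DESeq2, 511 with limma-voom and 79 without both WT 1 and WT 4. The labels do not say that a replicate number marks shared material, and same-numbered samples correlated in their deviations at r = -0.32, 0.23, -0.030 and 0.28 for numbers 1 to 4, so they were not treated as pairs. Only WT 2 correlated best with its own number. With the replicate number as a block, 0 genes were called by edgeR, 2418 having an unadjusted p under 0.05, and 0 members. The lowest member averaged 4.76 CPM, and the number of samples, 4 against 5, limits the precision of every value.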

Other observations

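Over the 9 libraries, the log2 CPM of the ATPase genes Psmc1 and Psmc3 were the most alike pair among the 46 genes (Pearson r = 0.934), followed by Psmb7 and Psmd5 (0.934) and by Psma5 and Psmb1 (0.924). The median r was 0.38 within the core and 0.12 within the cap. These values describe libraries that share scaling and groups, and pairs were ranked among all pairs of the 46.

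Among the 46 genes the log2 fold change and transcript length had a Spearman rho of 0.49, a description across genes.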
